A study of Homo sapiens with 11 samples.

Results

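INSIG1, HMGCS1, ABCA1, ST3GAL5 and A4GALT were followed as a group of 5 named genes of sterol and glycosphingolipid metabolism, out of 8085 genes with values. They were taken by name, with earlier results of these data known. RNA was sequenced from MDA-MB-231, a breast cancer cell line from a metastatic pleural effusion, 48 h after transfection. The groups received non-targeting siRNA at 100 nM (siNS, n = 2), a pool of siRNAs against BCL11A at 100 nM (siBCL11A, n = 3), a pool against MBNL1 at 100 nM (siMBNL1, n = 3) or both pools at 50 nM each (siB/siM, n = 3). BCL11A is a zinc finger repressor of transcription and MBNL1 is an RNA-binding regulator of splicing. All groups share the same cell line, so every value describes that line alone, and the labels leave unsaid whether the libraries of a group came from separate cultures. The p-values therefore set a difference against the spread among libraries, and that spread may be technical.

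Cells hold their sterol level steady through the endoplasmic reticulum protein INSIG1, which retains the SREBP transcription factors when sterol is plentiful. When sterol is scarce, SREBP factors reach the nucleus and raise enzymes of the mevalonate pathway, among them HMGCS1, and surplus sterol leaves the cell through the membrane transporter ABCA1, a classic target of the liver X receptors (LXR). Glycosphingolipids are built on ceramide in the Golgi, where lactosylceramide is turned into ganglioside GM3 by the sialyltransferase ST3GAL5 or into the globoside Gb3 by the galactosyltransferase A4GALT.

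Values are RPKM (reads scaled by gene length and library size), and the effective library size behind that scale lay between 20.04 M and 34.91 M reads (M, mega-reads). A gene has values in a knockdown only where it passed the authors' own test against siNS there, so INSIG1 has none in siMBNL1 and HMGCS1 none in siBCL11A, and their levels in those groups are not analysed here. MBNL1 itself stood at 10.2 and 9.77 RPKM in siNS, between 2.55 and 3.65 RPKM in the 6 libraries that received siMBNL1, and between 27.5 and 27.7 RPKM in siBCL11A. BCL11A has no values in any knockdown, so its RNA either fell short of the authors' threshold against siNS or was left untested by them. The values therefore show no fall of BCL11A RNA after siBCL11A or after both pools. Its level in each group is unknown, so its knockdown could not be checked here. In bulk RNA, fewer cells with a transcript and less of it per cell cannot be told apart.

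Against siNS, ST3GAL5, ABCA1 and A4GALT were lower in every knockdown, INSIG1 was lower in both knockdowns where it has values, and HMGCS1 was higher in both of its own. After siBCL11A, all 4 genes with values fell, where 46.9% of the 5360 tested genes were called lower and 42.3% higher at an adjusted p under 0.05 (limma on log2(RPKM + 1)). After siMBNL1, 3 of 4 fell and 1 rose, where 49.1% of 4690 genes were called lower and 45.2% higher. After both pools, 4 of 5 fell and 1 rose, where 35.5% of 6700 genes were called lower and 51.3% higher. Values exist only for genes that had already passed a test against siNS. A call, or a lack of overlap with the siNS libraries, therefore says little by itself. The median log2 change of the genes was −0.79, −0.52 and −0.62 in the 3 comparisons, beside −0.22, −0.25 and 0.24 over all genes tested in each block. The blocks list different genes, and over the 3149 genes with values in all libraries the medians were −0.211, −0.233 and −0.184, so the sign for siB/siM depends on which genes are counted. All 3 comparisons share the same pair of siNS libraries.

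**Figure D1:**
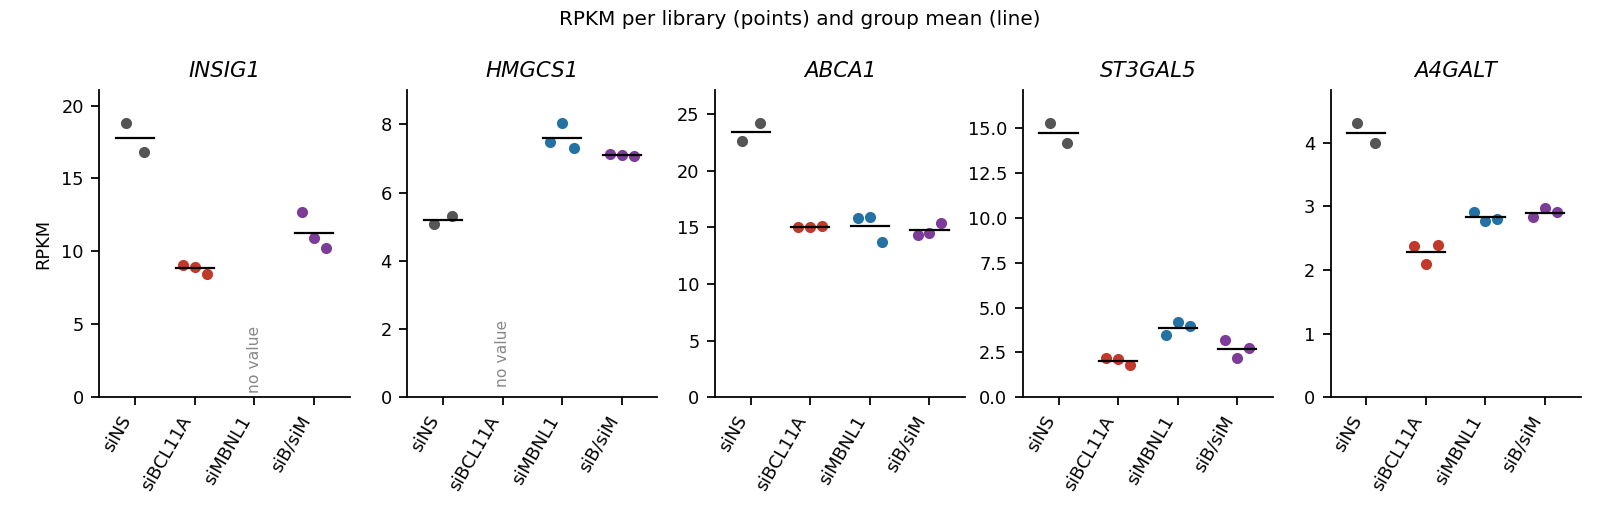
RPKM in each library (points) and the group mean (line) for the 5 genes, with 2 libraries in siNS and 3 in each other group and an axis from 0 in each panel. In every panel the siNS libraries lie apart from all knockdown libraries, above them except for HMGCS1. There siNS has 5.07 and 5.30 RPKM and the knockdown libraries 7.07 to 8.04. Only genes that passed the authors' test against siNS have values, which favours such a gap, and its share over all genes was not counted.

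INSIG1, the sterol sensor, stood at 18.8 and 16.8 RPKM in siNS, at 9.06, 8.96 and 8.48 RPKM in siBCL11A, and at 12.7, 10.9 and 10.2 RPKM in siB/siM. The siNS libraries were highest, siB/siM lay in the middle and siBCL11A was lowest, with no overlap between groups. The mean of 8.83 ± 0.312 RPKM (SD, n = 3) after siBCL11A had fallen by 50.4% from the 17.8 ± 1.45 RPKM (n = 2) of siNS, a log2 change of −0.93 ± 0.09 (SE, adjusted p = 2.95e-05). After both pools the change was −0.62 ± 0.09 (adjusted p = 0.000463). These values rest on 739 to 1527 reads per library.

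The promoter of INSIG1 is printed here with those of HMGCS1 and ABCA1, because E-boxes, sterol response elements, CCAAT boxes and LXR half-sites are the landmarks through which SREBP, its partner factors and LXR are known to act. Each line gives the 250 bases before the RefSeq transcription start (build GRCh38.p14), with the E-box, the CCAAT box on either strand and the LXR layout in capitals.
INSIG1, chr7:155297628-155297877, plus strand: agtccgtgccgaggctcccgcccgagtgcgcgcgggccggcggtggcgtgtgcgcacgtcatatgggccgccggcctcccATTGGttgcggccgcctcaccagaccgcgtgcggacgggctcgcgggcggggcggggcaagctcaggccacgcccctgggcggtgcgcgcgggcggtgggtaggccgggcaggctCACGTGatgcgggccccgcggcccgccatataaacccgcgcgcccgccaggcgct
HMGCS1, chr5:43313413-43313662, minus strand: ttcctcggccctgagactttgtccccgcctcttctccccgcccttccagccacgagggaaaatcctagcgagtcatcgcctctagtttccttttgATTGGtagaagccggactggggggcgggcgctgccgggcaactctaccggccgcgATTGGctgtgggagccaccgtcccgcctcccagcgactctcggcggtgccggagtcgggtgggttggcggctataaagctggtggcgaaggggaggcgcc
ABCA1, chr9:104928156-104928405, minus strand: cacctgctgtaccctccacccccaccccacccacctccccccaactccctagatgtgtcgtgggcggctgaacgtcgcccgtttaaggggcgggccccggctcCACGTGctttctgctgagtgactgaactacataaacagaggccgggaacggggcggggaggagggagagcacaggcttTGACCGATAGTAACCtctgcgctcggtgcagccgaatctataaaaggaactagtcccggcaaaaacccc

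INSIG1 has CACGTG, the E-box, 55 bases before its start and an inverted CCAAT box 170 bases before it. HMGCS1, at the upstream of its 2 RefSeq starts, has inverted CCAAT boxes 155 and 100 bases before its start and no CACGTG. In the ABCA1 promoter CACGTG lies 147 bases before the start, and the layout of an LXR site, GGTTA or GGTCA followed after 5 bases by GGTCA, lies 69 bases before it on the opposite strand, with no overlap between them. Of 35116 windows of 300 bases around RefSeq starts, 7.26% hold CACGTG, 34.6% hold CCAAT on either strand and 0.137% hold the LXR layout. The core of a sterol response element, CACCCCAC on either strand, matched in none of the INSIG1 and HMGCS1 windows and once in that of ABCA1, 228 bases before the start and left in lower case above, and 2.79% of all windows hold it. A match describes the letters only, and the lack of one says nothing of the factor.

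HMGCS1, which makes HMG-CoA for the mevalonate pathway, stood at 5.07 and 5.30 RPKM in siNS, at 7.47, 8.04 and 7.31 RPKM in siMBNL1, and at 7.14, 7.10 and 7.07 RPKM in siB/siM. All 6 knockdown libraries exceeded both siNS libraries. The rise was 46.7% of the siNS mean after siMBNL1 (7.61 ± 0.384 against 5.19 ± 0.16 RPKM, log2 change 0.48 ± 0.06, adjusted p = 0.00024) and 36.9% after both pools (0.39 ± 0.06, adjusted p = 0.000673). An annotated gene on the opposite strand, AC114947.2, shares 703 exonic bases with HMGCS1 in GENCODE v29. The library kit kept strand, but whether the counting used it is not given in the sources used here, so reads of the overlap cannot be assigned with certainty.

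ABCA1, the efflux transporter, stood at 22.6 and 24.2 RPKM in siNS, at 15, 15 and 15.1 RPKM in siBCL11A, at 15.8, 15.9 and 13.7 RPKM in siMBNL1, and at 14.3, 14.5 and 15.4 RPKM in siB/siM. The 9 knockdown libraries overlapped one another and all lay below siNS. The log2 change was −0.61 ± 0.07 after siBCL11A (adjusted p = 3.73e-05), −0.60 ± 0.07 after siMBNL1 (adjusted p = 5.47e-05) and −0.63 ± 0.07 after both (adjusted p = 2.55e-05). The direct differences between knockdowns were −0.01 (95% interval −0.14 to 0.13) for siBCL11A against siMBNL1, −0.03 (−0.16 to 0.11) for siB/siM against siBCL11A and −0.03 (−0.17 to 0.10) for siB/siM against siMBNL1.

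ST3GAL5, GM3 synthase, changed by more than each of the others with values in every comparison with siNS. It stood at 15.3 and 14.2 RPKM in siNS, at 2.16, 2.15 and 1.82 RPKM in siBCL11A, at 3.45, 4.19 and 3.99 RPKM in siMBNL1, and at 3.19, 2.21 and 2.74 RPKM in siB/siM. No library of one group overlapped another group. The mean fell by 86.2% after siBCL11A, from 14.8 ± 0.799 to 2.05 ± 0.195 RPKM (log2 change −2.37 ± 0.10, adjusted p = 3.72e-08), fell by 73.8% after siMBNL1 (−1.70 ± 0.10, adjusted p = 5.81e-07) and fell by 81.6% after both (−2.09 ± 0.10, adjusted p = 7.81e-08). Ordered by size of fall, ST3GAL5 was in place 6 of 5360 genes after siBCL11A, 13 of 4690 after siMBNL1 and 13 of 6700 after both. In the authors' deposited table its log2 value, siNS over knockdown, is 2.77, 1.94 and 2.44, and the authors' deposited list of genes lowered by siBCL11A gives it a fold of 7.22 and INSIG1 a fold of 2.02.

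A cassette exon of ST3GAL5 was also listed by the authors as changed in splicing. Its inclusion level, the fraction of transcripts that keep the exon, went from 0.949 in siNS to 0.784 in siMBNL1, 1 value per group with no error. It was in the siMBNL1 list of 110 exons and not in the lists for siBCL11A (107 exons) or siB/siM (146). Only listed exons have inclusion levels, so its level in those 2 groups is unknown. ST3GAL5 itself stood at only 2.05 and 2.71 RPKM there, and whether few reads kept the exon off those lists was not tested.

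**Figure D2:**
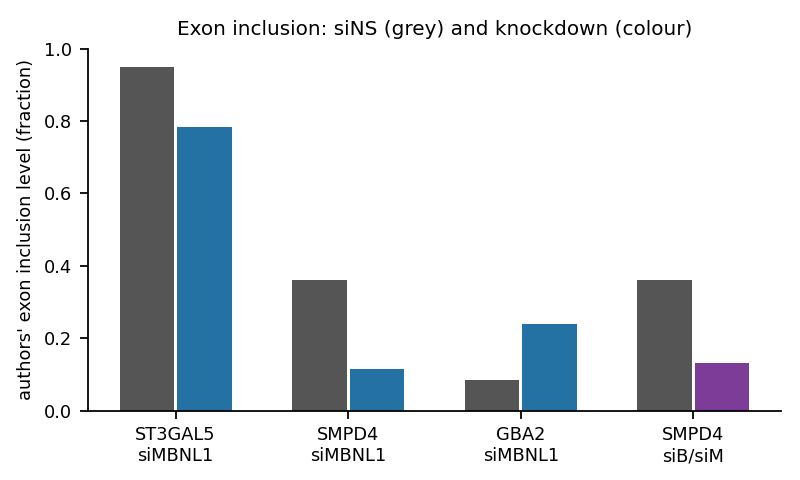
The authors' inclusion level (fraction, axis from 0 to 1) of the listed exons in genes of the lipid lists, 1 pooled value per bar with no error, siNS in grey and the knockdown in colour. The ST3GAL5 exon goes from 0.949 to 0.784 after siMBNL1, and an SMPD4 exon from 0.361 to 0.116 after siMBNL1 and 0.132 after both pools.

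A4GALT, Gb3 synthase, was the least abundant of the 5 genes in siNS, at 4.31 and 4 RPKM. It stood at 2.37, 2.09 and 2.39 RPKM in siBCL11A, at 2.91, 2.77 and 2.80 RPKM in siMBNL1, and at 2.83, 2.97 and 2.91 RPKM in siB/siM. The siBCL11A libraries were lowest, siMBNL1 and siB/siM overlapped, and siNS was highest. The log2 change was −0.65 ± 0.06 after siBCL11A (adjusted p = 6.21e-06), −0.43 ± 0.06 after siMBNL1 (adjusted p = 0.000208) and −0.40 ± 0.06 after both (adjusted p = 0.000261). Its values rest on 153 to 288 reads per library, the fewest of the 3 genes whose reads could be worked out.

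**Figure D3:**
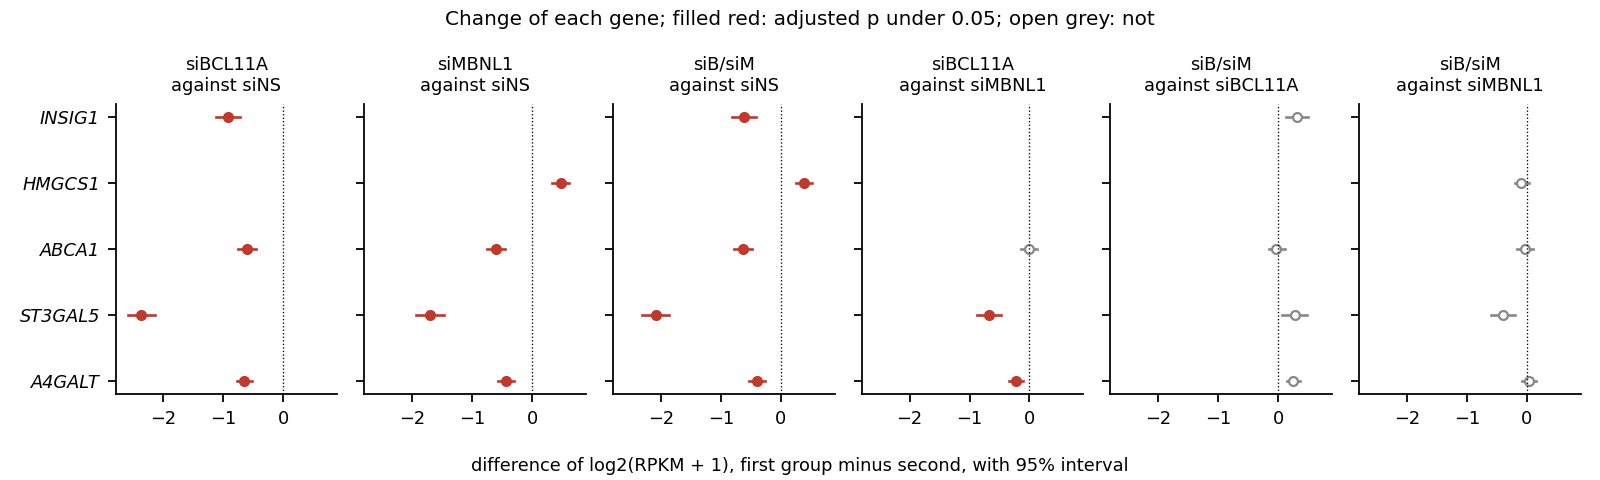
Difference of log2(RPKM + 1) between group means for each gene, with its 95% interval from limma, in 6 comparisons, filled red where the adjusted p is under 0.05 and open grey where it is not. ST3GAL5 lies furthest from 0 in the comparisons with siNS (−2.37, −1.70 and −2.09), and no gene is called in the comparisons of both pools with a single pool.

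Comparing the single pools asks whether BCL11A and MBNL1 siRNA moved these genes by the same amount. ST3GAL5 was lower after siBCL11A than after siMBNL1 (2.05 ± 0.195 against 3.87 ± 0.382 RPKM, log2 difference −0.68 ± 0.09, adjusted p = 0.00116). A4GALT was lower by 0.22 on the log2 scale (−0.22 ± 0.05, adjusted p = 0.0496). The call held under 3 of 19 alternatives, among them the fit without a filter, which equals the main fit. The call was lost when any library was left out (adjusted p 0.0635 to 0.276). Of the 3 genes with values in both groups, 2 were called lower, where 11.9% of 3376 genes were called lower and 7.02% higher.

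Adding the second pool asks whether the combination differed from each pool alone, although each was then given at the smaller dose. With both pools against siBCL11A, none of 4 genes was called by limma, where 2.04% of 4511 genes were called in either direction. The unadjusted p was under 0.05 for 3 of the 4 and for 1173 of the 4511. The calls over all genes were 87.0% higher as deposited, and 52.9% higher after quantile normalization and 64.4% after a shift of medians. INSIG1 differed by 0.31 (95% interval 0.13 to 0.49, adjusted p = 0.184), ST3GAL5 by 0.28 (0.07 to 0.48, adjusted p = 0.423) and A4GALT by 0.25 (0.14 to 0.37, adjusted p = 0.0772), each with no overlap between libraries. The share of all genes without overlap was not counted. Against siMBNL1, none of 4 genes was called by limma, and 11.6% of 3927 genes were called in either direction. The unadjusted p was under 0.05 for 1 of the 4 and for 1496 of the 3927. There ST3GAL5 differed by −0.40 (−0.60 to −0.19, adjusted p = 0.0584), and the call was made without siB/siM replicate 1 (−0.49, adjusted p = 0.0269), while HMGCS1 differed by −0.09 (−0.20 to 0.03) and A4GALT by 0.03 (−0.08 to 0.15).

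Cholesterol synthesis enzymes, the list that holds HMGCS1, were not moved as a block. In this list and those below, a gene counted as higher or lower is one called at an adjusted p under 0.05. Each count is to be read against the shares called over all genes tested. These were 42.3% higher and 46.9% lower after siBCL11A, 45.2% and 49.1% after siMBNL1, and 51.3% and 35.5% after both. Of 13 cholesterol enzymes with values after siBCL11A, 4 rose and 8 fell (median −0.37, against −0.22 over all genes tested). TM7SF2, a sterol reductase, fell furthest, from 8.9 ± 0.337 to 3.27 ± 0.821 RPKM (log2 change −1.23 ± 0.14), SQLE, squalene epoxidase, fell by 0.68, while GGPS1, which makes geranylgeranyl diphosphate, rose by 0.48 ± 0.08. After siMBNL1, 6 of 9 rose and 2 fell (median 0.29 against −0.25), with MVK, mevalonate kinase, up by 0.51 ± 0.09 and TM7SF2 again lowest (−1.02 ± 0.14). After both pools 7 of 15 rose and 7 fell (median −0.22 against 0.24 over all genes tested and −0.184 over the 3149 genes with values in all libraries), ACAT2, an acetoacetyl-CoA thiolase, rising by 0.44 ± 0.06 and TM7SF2 falling by 1.03. HMGCS1 and SQLE thus went opposite ways after both pools (0.39 ± 0.06 and −0.54 ± 0.10). Between the single pools limma called none of the 7 genes of the list with values, and 3 had an unadjusted p under 0.05. Over all 3376 genes tested there, 11.9% were called lower and 7.02% higher.

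In the list of sterol sensing, uptake and trafficking, which holds INSIG1, 5 of 13 rose and 6 fell after siBCL11A (median −0.21 against −0.22 over all genes tested). After siMBNL1, 5 of 10 rose and 4 fell (0.42 against −0.25). After both, 5 of 13 rose and 6 fell (−0.16 against 0.24, or −0.184 over the 3149 genes). MYLIP, a ubiquitin ligase counted in this list and not among the LXR targets below, rose in all 3 comparisons with siNS. Its changes (0.80 ± 0.07, 0.58 ± 0.07 and 0.83 ± 0.07) were opposite to those of ABCA1. MBTPS2, the site-2 protease that frees SREBP, fell in all 3 (−1.06 ± 0.15, −0.57 ± 0.15 and −0.94 ± 0.15). Its siNS libraries, shared by the 3 comparisons, were far apart (5.33 ± 1.67 RPKM, n = 2). INSIG2, the paralog of INSIG1, also fell in all 3 (−0.65, −0.50 and −0.78), and its call after siMBNL1 was lost under quantile normalization (limma, adjusted p = 0.0774). TMEM97, an endoplasmic reticulum sterol-binding protein, rose furthest after siMBNL1 (0.65 ± 0.07) and was lower by 0.27 after siBCL11A than after siMBNL1 (−0.27 ± 0.06, adjusted p = 0.042).

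LXR targets and efflux genes, the list of ABCA1, had 5 of 8 called lower and 1 called higher after siBCL11A (median −0.61 against −0.22 over all genes tested). LPCAT3 (0.33) and APOC1 (−0.48) were not called there. After siMBNL1, 6 of 8 were called lower and none higher (−0.50 against −0.25), while RXRA (0.23) and NR1H2 (−0.27) were not called. After both, 6 of 8 were called lower and 1 higher (−0.46 against 0.24, or −0.184 over the 3149 genes). NR1H3, LXR alpha itself, fell in all 3 comparisons (−0.61, −0.69 and −0.45). The list also holds receptors such as NR1H3 and other efflux genes, so its counts do not describe LXR targets alone. MYLIP, which rose in all 3 comparisons, is not counted in it, so the counts do not show a common fall of LXR targets. ABCC1, a multidrug transporter, fell furthest after siMBNL1 (−1.23 ± 0.11). CAV1, the caveolar coat protein, rose after siBCL11A (0.23 ± 0.07) and was higher there than after siMBNL1 by 0.71 ± 0.06 (adjusted p = 2.83e-05).

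Of the 26 genes of glycosphingolipid synthesis, the list of ST3GAL5 and A4GALT, 14 have values in any block, and these were mostly lower. B4GALT5, B4GALNT1 and ST8SIA1 are among those without values. Those with values include the sialyltransferases ST3GAL1, ST3GAL3, ST3GAL4 and ST3GAL6, and whether these act on glycosphingolipids in these cells was not tested. Of the genes with values, 10 of 12 were lower and 2 higher after siBCL11A (median −0.50 against −0.22 over all genes tested). After siMBNL1 8 of 9 were lower and 1 higher (−0.36 against −0.25), and after both 11 of 13 were lower and 2 higher (−0.37 against 0.24, or −0.184 over the 3149 genes). After ST3GAL5, the sialyltransferase ST3GAL6 and B3GNT5, which starts the lacto-series branch, fell most after siBCL11A (−1.04 ± 0.14 and −1.19 ± 0.12). UGT8, which makes galactosylceramide, was the largest rise of the list in each comparison with siNS (0.62 ± 0.06, 0.61 ± 0.06 and 0.67 ± 0.06). UGCG, which makes glucosylceramide, the first step of this route, rose by 0.33 after siBCL11A and 0.40 after both and fell by 0.24 after siMBNL1. Under quantile normalization the rises of UGCG were not called (adjusted p = 0.101 and 0.0687), nor was its fall under a shift of medians (adjusted p = 0.0853). The direct difference of UGCG between the single pools was 0.57 ± 0.06 (124 ± 7.71 against 83.4 ± 2.75 RPKM, adjusted p = 0.000238), and B3GNT5 differed most the other way (−0.79 ± 0.10). Between the single pools 5 of 8 genes of the list were called lower after siBCL11A and 1 higher, where 11.9% of 3376 genes were called lower and 7.02% higher.

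**Figure D4:**
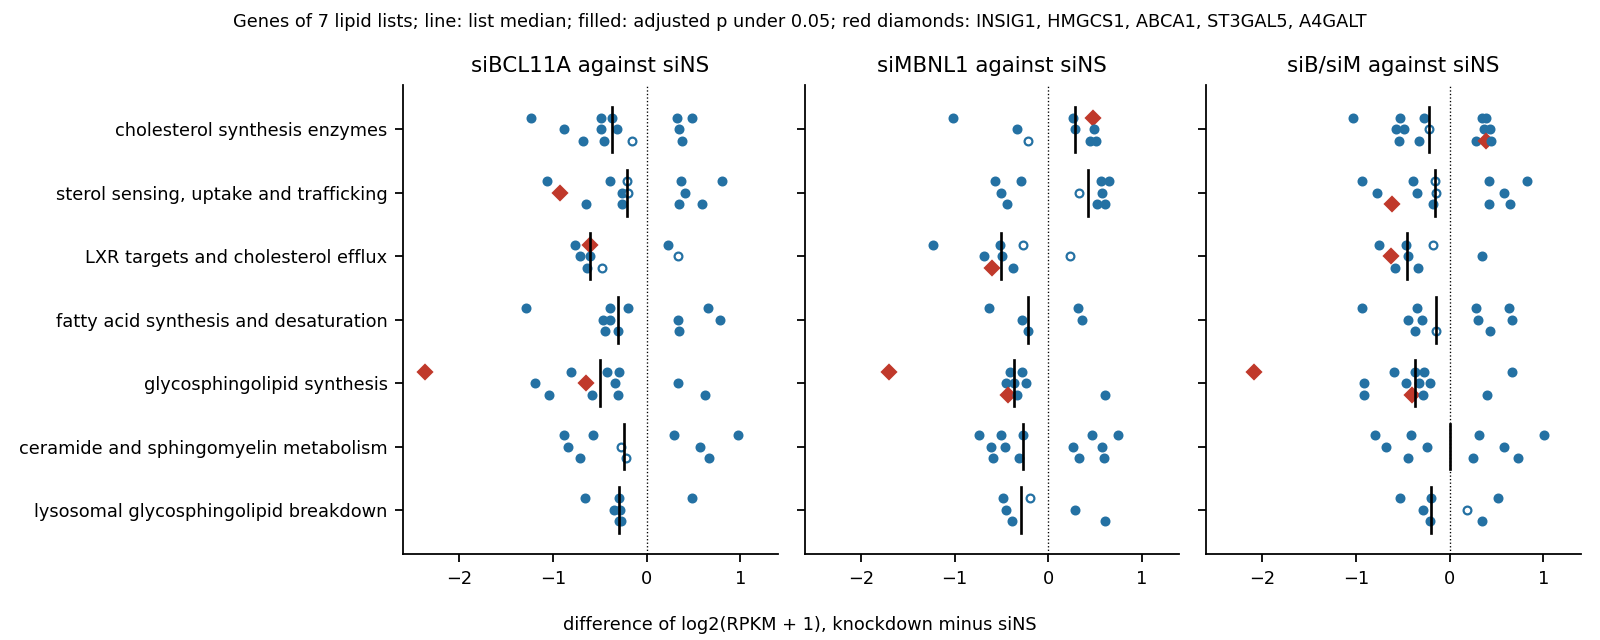
Log2 change against siNS of every gene with values in 7 lists of lipid metabolism, 1 point per gene, filled where the adjusted p is under 0.05, with the list median as a line and the 5 genes followed here as red diamonds. ST3GAL5 lies apart from its list in each panel, and in the glycosphingolipid synthesis list 10 of 12, 8 of 9 and 11 of 13 genes are called lower. From the top list to the bottom list, 16 of 22, 18 of 22, 11 of 15, 12 of 15, 14 of 26, 16 of 29 and 10 of 16 genes have values in any block.

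Over the 3149 genes with values in all libraries the median log2 change after siBCL11A was −0.211 as deposited and −0.067 after quantile normalization, a move of 0.144, and the moves in the other 5 comparisons were under 0.1. On the quantile scale INSIG1 changed by −0.98, ABCA1 by −0.66, ST3GAL5 by −2.31 and A4GALT by −0.47 after siBCL11A. No count of a list in either direction moved by more than 2 under either rescaling, and 1 called gene, B4GALT6 after siBCL11A, changed sign (−0.30 as deposited, 0.01 after quantile normalization). The counts hide some turnover, since 27 calls of list genes over the 6 comparisons and both rescalings were lost, among them ABCA7 (−0.34 to −0.03), B3GALT5 (−0.47 to −0.09) and B4GALT6 (−0.37 to −0.10) after both pools under quantile normalization.

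The cell line was checked against markers. VIM, a mesenchymal marker, stood at 917 ± 26.2 RPKM in siNS. Of 6 epithelial markers 5 have values, and the summed level of KRT18, KRT19 and KRT7, which have values in all libraries, was 937 to 989 RPKM in siNS, 707 to 781 in siBCL11A, 772 to 805 in siMBNL1 and 770 to 805 in siB/siM. KRT19 fell in each knockdown (−1.20, −0.64 and −0.90) and so did KRT7 (−0.52, −0.59 and −0.35), EPCAM fell after siBCL11A and after both (−0.74 and −0.45), and KRT18 rose in each (0.31, 0.25 and 0.29), as did KRT8 after both (0.38). Of the epithelial markers with values, 3 of 4, 2 of 3 and 3 of 5 were thus lower after siBCL11A, siMBNL1 and both, and of the mesenchymal and basal-like markers 2 of 3, 1 of 2 and 1 of 5 were higher. The defining epithelial marker CDH1 is not among the genes with values. Of 6 immune markers 3 have values (CD14, CD68 and CSF1R), all 3 were called lower in each knockdown, and their summed level was 60.6 to 62.4 RPKM in siNS, 27.8 to 31.5 in siBCL11A, 33.3 to 38.8 in siMBNL1 and 26.7 to 28.3 in siB/siM. The defining markers PTPRC, CD3E and CD79A are not among the genes with values. Of 8 endothelial and fibroblast markers 3 have values, and the summed level of COL1A1 and PDGFRB was 4.61 to 5.28 RPKM in siNS and 0.946 to 1.68 RPKM in the 9 knockdown libraries. No marker with values was at 0 in a library, and none of 4 adipocyte markers is among the genes with values. These falls went with the falls of INSIG1, ABCA1, ST3GAL5, A4GALT and the glycosphingolipid and LXR lists, and their part in those results was not tested.

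The genes whose pattern was most like each of the 5 were found by Pearson correlation of log2(RPKM + 1) over the libraries with values, which include the siNS pair that stands apart, so the coefficients mostly describe the step from siNS. ST3GAL5 was matched over 11 libraries by SNCG (r = 0.993), CA11 (0.988) and CD14 (0.988). ABCA1 was matched by IL10RB (0.989), SLC16A4 (0.986) and CCND2 (0.986), and A4GALT by TUBA4A (0.984), TPBG (0.979) and HBEGF (0.974). Over 8 libraries INSIG1 was matched by SLC4A7 (0.991), TRIM34 (0.990) and DDAH1 (0.990), and HMGCS1 by SNRK (0.997), TOP2A (0.996) and CDC6 (0.995), the last pair acting in DNA topology and replication licensing. TOP2A stood at 135 RPKM in siNS, 263 in siMBNL1 and 232 in siB/siM. Of the genes compared, 409 of 3926 had an r over 0.95 with HMGCS1 and 19 of 3148 with A4GALT, so a high coefficient with HMGCS1 was common.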

How the data were processed

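Total RNA of 11 MDA-MB-231 libraries was depleted of ribosomal RNA and made into stranded libraries, per the labels' protocols. The deposited table holds RPKM per library on build hg19, per the submitters' processing notes, in a block for each knockdown with siNS. The authors' deposited log2 fold change and p-value stand beside them, and the largest adjusted p in the blocks is 0.04998, 0.04982 and 0.04998, so listed genes are those that passed the authors' test. Deposited lists give a fold (ratio of mean RPKM) for siBCL11A and exon inclusion as a fraction, 1 value per group. No source used here names the aligner or the counting program.

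Groups came from sample titles. Log2(RPKM + 1) was fitted in limma 3.58.1 (R 4.3.3) with a mean per group, each gene on the groups it has, moderation with trend and robust options off (prior 4.83 degrees of freedom, SD 0.0814), and a filter of 1 RPKM in at least 1 group, met by all 8085 genes. P-values were Benjamini-Hochberg adjusted as if 23227 genes had been tested, and calls are at 0.05. The procedure was tested on simulated data. Library sizes and reads were worked out from whole-read steps of short RNAs and checked to within 0.1 reads per library for INSIG1, HMGCS1 and A4GALT only. Libraries of a group were distinct (at most 0.0746% of values identical).

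The 5 genes, the lists and the tests were chosen with earlier results of these data known. Of each list, the called genes with the largest rise and fall in each comparison with siNS and between the single pools are named, with the 3 genes most like each of the 5, and others named were chosen after their values were seen. Some items that the rule names are not reported here. Equal replicate numbers of siBCL11A and siB/siM deviated together (r = 0.33, 0.19 and 0.18), so that comparison was also fitted as paired. Unequal numbers in other comparisons reached similar values, 0.37 for siBCL11A 1 and siMBNL1 2 and 0.34 for siMBNL1 2 and siB/siM 1. The values therefore do not establish a shared culture. With the replicate block no gene of the 5 changed its call there, and 1 lipid-list gene was called in place of 2. Alternatives were another pseudocount, 2 rescalings, other filters, another adjustment, moderation settings, the 2 groups alone, the replicate block and leaving out each library. Promoters are RefSeq (GRCh38.p14) and gene overlaps GENCODE v29.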

Additional observations from a re-analysis of the deposited data

How the results depend on the processing

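The 13 changes of the 5 genes against siNS kept their direction and their call under every alternative run (19 or 20 each, A4GALT having no value under a filter of 5 RPKM). For siBCL11A against siMBNL1, 1 gene (ST3GAL5) was called in place of 2 under a filter of 5 RPKM, a shift of medians, quantile normalization, the 2 groups alone, trend and robust moderation, the replicate block, and every omission of 1 library (1 to 1). With the replicate block the difference of A4GALT was −0.22 (adjusted p = 0.0755). For siB/siM against siBCL11A, 2 genes (INSIG1 and A4GALT) were called in place of 0 when p-values were adjusted over genes with values alone, and for siB/siM against siMBNL1, 1 (ST3GAL5) in place of 0 under that adjustment, under trend and robust moderation, and without siB/siM replicate 1 (0 to 1 over the omissions). The difference of ABCA1 between siBCL11A and siMBNL1, −0.01, turned to 0.02 under a shift of medians, to 0.03 under quantile normalization, and to 0.03 without siMBNL1 replicate 1 or 2 (−0.07 to 0.03 over the omissions). For siB/siM against siMBNL1 that of ABCA1 went from −0.03 to 0.00 without siMBNL1 replicate 2 (−0.10 to 0.00). The causes were not tested.

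Counts over all genes were less stable between knockdowns. For siBCL11A against siMBNL1, 638 genes were called and 1150 with adjustment over genes with values alone. For siB/siM against siBCL11A the 92 calls became 456 under that adjustment, 165 with trend and robust moderation, 45 and 34 under the rescalings, 47 with a pseudocount of 0.1, 9 and 8 without siBCL11A replicates 1 and 2, 12, 15 and 8 without siB/siM replicates 1, 2 and 3, and 24 without either siNS replicate. For siB/siM against siMBNL1 the 454 calls became 993 under that adjustment, 300 in the 2 groups alone, and 262 and 272 without siB/siM replicates 2 and 3. Lipid-list calls ranged from 6 to 20 (main 11), 0 to 9 (main 2) and 3 to 14 (main 7) in these 3 comparisons. In each other comparison at least 1 pair of equal numbers had a negative r, although libraries numbered 3 had r = 0.24 between siBCL11A and siMBNL1 and 0.18 between siMBNL1 and siB/siM. With 2 siNS libraries and no counts deposited, precision is limited by the number of libraries.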

Other observations

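Ceramide and sphingomyelin genes moved both ways. SGPL1, the lyase that degrades sphingosine-1-phosphate, was the largest rise of its list in each comparison with siNS (log2 change 0.98 ± 0.07 after siBCL11A, 0.75 ± 0.07 after siMBNL1 and 1.01 ± 0.07 after both), reaching 17.3 ± 0.461 RPKM after siBCL11A from 8.24 ± 0.174 RPKM in siNS. SPTLC3, a subunit of serine palmitoyltransferase, the entry step, was the largest fall (−0.88 ± 0.07, −0.74 ± 0.07 and −0.80 ± 0.07). The list had 4 of 10 higher and 4 lower after siBCL11A, 6 of 13 higher and 7 lower after siMBNL1, and 5 of 10 higher and 5 lower after both, with medians of −0.24, −0.27 and 0.01. Over all genes tested, 42.3% were called higher and 46.9% lower after siBCL11A, 45.2% and 49.1% after siMBNL1, and 51.3% and 35.5% after both, with medians of −0.22, −0.25 and 0.24 (−0.184 after both over the 3149 genes with values in all libraries). The counts of this list and of the lists below are descriptions to be read against those shares. SMPD1, acid sphingomyelinase, was lower after siBCL11A than after siMBNL1 by 0.34 (−0.34 ± 0.08, adjusted p = 0.0369). SMPD4, a neutral sphingomyelinase, rose in each comparison (0.67, 0.57 and 0.73), and an 87-base exon of it had an authors' inclusion level of 0.361 in siNS, 0.116 in siMBNL1 and 0.132 in siB/siM, with 1 value per group. GBA2, a glucosylceramidase, has a 51-base exon whose inclusion level went from 0.0861 to 0.239 after siMBNL1.

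Of the fatty acid genes, 4 of 11 rose and 7 fell after siBCL11A, 2 of 5 rose and 3 fell after siMBNL1, and 5 of 11 rose and 5 fell after both (medians −0.31, −0.21 and −0.15). FADS2, the delta-6 desaturase, separated the single pools. It was at 39.5 ± 0.853 RPKM in siNS, 15.6 ± 1.33 in siBCL11A, 32.3 ± 1.57 in siMBNL1 and 20.1 ± 0.391 in siB/siM, and its difference between the single pools was −1.01 ± 0.06 (limma, adjusted p = 2.27e-06). FADS3, a related desaturase, rose after siBCL11A (0.78 ± 0.07) and after both (0.67 ± 0.07). After siMBNL1 the largest rise was ELOVL5, a fatty acid elongase (0.36 ± 0.06), and the largest fall ACSS2, an acetyl-CoA synthetase (−0.63 ± 0.08). Among genes of glycosphingolipid breakdown, 1 of 7 rose and 6 fell after siBCL11A, 2 of 6 rose and 3 fell after siMBNL1, and 2 of 7 rose and 4 fell after both (medians −0.29, −0.29 and −0.20). GALC, galactosylceramidase, was the largest fall of that list (−0.66 ± 0.06, −0.48 ± 0.06 and −0.53 ± 0.06) and NEU3, a ganglioside sialidase, the largest rise (0.48 ± 0.08, 0.61 ± 0.08 and 0.52 ± 0.08).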
